A study of Rattus norvegicus with 27 samples.

Results

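The G2 and mitosis genes are 45 genes whose products carry a cell from the end of DNA replication through chromosome segregation and cell division. They were chosen by function and matched by gene symbol to the mRNA table of cultured rat Schwann cells. Of the 45, 39 had a row among the 17315 genes of the table. The other 6 (Cenpe, Anln, Spc24, Ncapg, Ncapd2 and Ncaph) matched no row by symbol or synonym and are not analysed here. All 39 reached the level needed for testing, as did 10372 genes in all. Cenpa reached it only through the differentiated libraries, which it must be high in to be tested, and it was not called in any comparison of the 9 libraries.

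The cells were primary Schwann cells of rat, bought from a commercial supplier and used at low passage on coated plates. Schwann cells are the glia that ensheathe and myelinate axons of peripheral nerves. The 3 stages were sequenced with 3 libraries each, described by the labels as biological replicates. Undifferentiated cells were kept without dibutyryl cyclic AMP (dbcAMP), a membrane-permeable analogue of cyclic AMP; the rest of their medium at harvest is not stated. Differentiated cells were starved overnight in DMEM with 1% exosome-depleted serum and then held for 72 h in that medium with 1 mM dbcAMP. Dedifferentiated cells went through the same treatment and then spent another 72 h without dbcAMP in complete medium, which contained 10% exosome-depleted serum, forskolin and neuregulin. All 3 stages were seeded in growth medium. Stage, serum and mitogens thus changed together and cannot be told apart. With bulk RNA, a change in the share of cells in G2 or mitosis and a change in RNA per such cell cannot be told apart either.

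Entry into mitosis is driven by CDK1 bound to cyclin A or cyclin B, switched on by CDC25 phosphatases and helped by PLK1 and Aurora A. The spindle checkpoint then holds the cell until each kinetochore is attached to microtubules, after which CDC20 and the anaphase-promoting complex destroy securin and cyclin B and the sister chromatids part. Many of these genes are transcribed periodically: the DREAM complex represses them in resting cells, and B-MYB and FOXM1 activate them in G2. Schwann cells divide in culture in response to neuregulin and agents that raise cyclic AMP, and in nerve they leave the cell cycle as they myelinate.

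The 9 libraries held 10058732 to 16212282 counts, so 3 counts, taken as the smallest level distinguishable from 0, correspond to 0.185 to 0.298 CPM, the count scaled to the total of the library. CPM is not corrected for gene length, so levels are compared between libraries; between genes, mean CPM served only to choose which members are shown in full. Replicates 1 and 2 of each stage belong to sequencing project 9987 and replicate 3 to project 11026. One library stood apart for these genes: the median member stood at 0.806 CPM in undifferentiated replicate 1, against 3.37 and 4.71 CPM in replicates 2 and 3. That library held 3 counts or fewer for 10 of the 39 members, including 0 for Cenpa and Pbk, and was the lowest of its stage for 38. The corresponding medians were 5.75, 10.4 and 14.2 CPM in the differentiated libraries and 3.98, 5.37 and 4.89 CPM in the dedifferentiated libraries. Replicate 1 was also the lowest of its stage for 38 members in differentiated and 32 in dedifferentiated cells. Replicate 3 was the highest for 33 members in undifferentiated and 37 in differentiated cells. In dedifferentiated cells replicate 2 was the highest for 19 members and replicate 3 for 16.

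**Figure D1:**
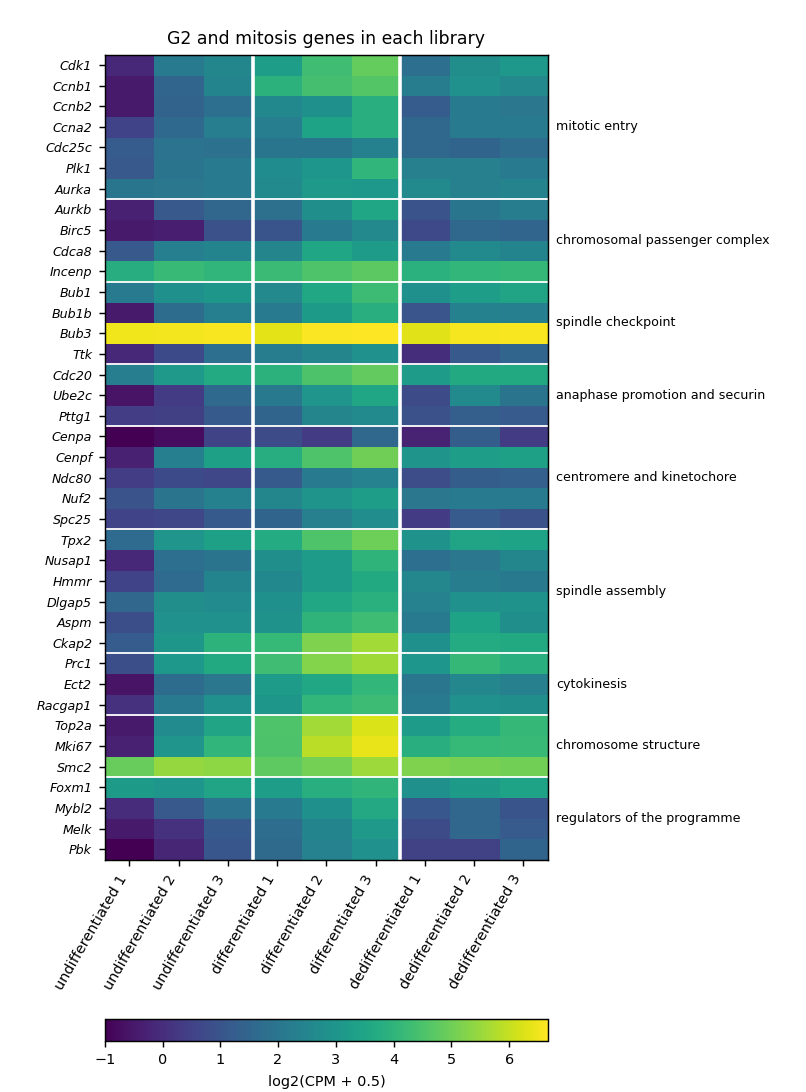
Heat map of log2(CPM + 0.5) for the 39 members (rows, grouped by role) in each of the 9 libraries (columns, grouped by stage). The 3 differentiated columns are brighter for most rows, undifferentiated replicate 1 is the darkest column with a median member at 0.806 CPM, and the rows of Bub3 and Smc2 keep nearly the same colour throughout.

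The first comparison asked what 72 h of dbcAMP in low serum did to these genes. In differentiated cells 33 of the 39 members rose (84.6%) and none fell, at a Benjamini-Hochberg adjusted p under 0.05 in edgeR's quasi-likelihood test. Over all 10372 genes tested, 31.7% were called higher and 27.9% lower. The median change of the members was 1.78 on the log2 scale, against 0.05 over all genes tested; leaving out a library moved it between 1.39 (undifferentiated replicate 1) and 2.50 (undifferentiated replicate 3). Changes of called members ran from 0.46 for Incenp to 3.04 for Top2a, 32 members were at least 1 log2 unit higher and 14 at least 2. The 3 differentiated libraries lay above all 3 undifferentiated libraries for 33 members, as they did for 38.9% of genes tested. The members not called were Cdc25c, Bub1, Bub3, Cenpa, Smc2 and Foxm1.

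The second comparison asked what followed dbcAMP withdrawal in complete medium. In dedifferentiated cells 17 members fell (43.6%) and none rose, while 23.2% of all genes tested were called lower and 23.2% higher. With the replicate number as a block in the same test, 31 members were called lower and 0 higher. Mki67 and Cenpf were then among those called (adjusted p = 0.0183 and 0.0347). The labels tie no number to a shared culture, so calls of single members are those of the fit without the block. All 39 fitted changes were negative, with a median of -1.23 against -0.01 over all genes tested; the median was -0.80 without differentiated replicate 3. The dedifferentiated libraries lay below all differentiated ones for 25 members (64.1%), as they did for 30.2% of genes tested. This comparison and the first share the differentiated libraries.

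The third comparison set the stage after withdrawal against cells that never received dbcAMP. No member was called in either direction by edgeR's quasi-likelihood test or by DESeq2's Wald test, and 0 had an unadjusted p under 0.05. With the replicate number as a block, edgeR's test called 4 members higher and 0 lower. Of all genes tested, 16.1% were called higher and 13.3% lower. The median member change was 0.48, and it was 0.20 without undifferentiated replicate 1, 0.96 without undifferentiated replicate 3 and 0.93 in sequencing project 9987 alone. Without undifferentiated replicate 3, Ccnb1, Birc5 and Ube2c were called higher (adjusted p = 0.0268, 0.0306 and 0.0425). Fitted changes were positive for 31 members and negative for 8: Cdc25c, Incenp, Bub3, Ttk, Spc25, Smc2, Foxm1 and Mybl2. For Aurka and Ndc80 alone, the dedifferentiated libraries all lay above the undifferentiated ones (26.8% of genes tested), without a call. In mean CPM, 38 members were highest in differentiated cells, Smc2 was highest in undifferentiated cells, and 34 had a dedifferentiated mean between the other 2 stages.

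**Figure D2:**
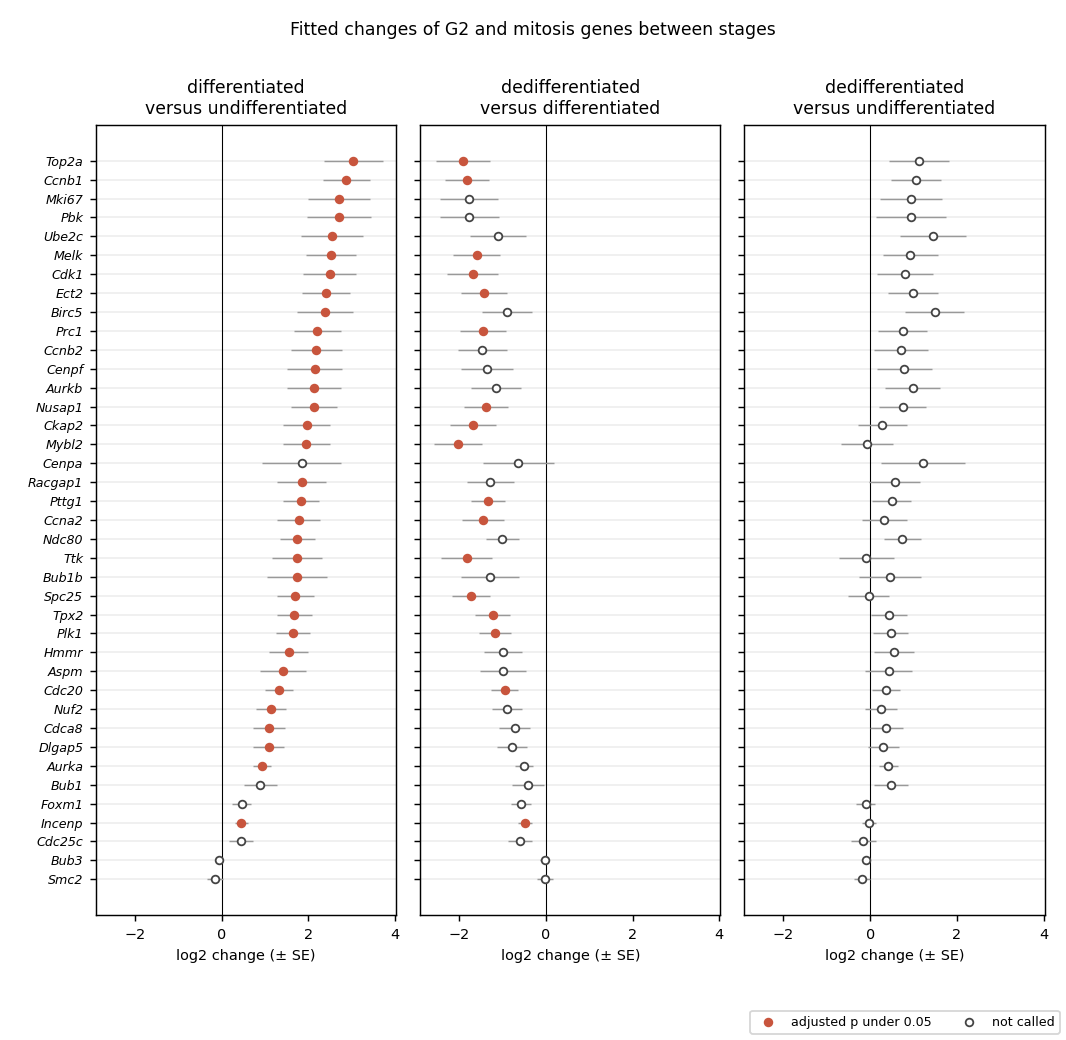
Fitted log2 change ± SE of each of the 39 members in the 3 comparisons (panels); filled points passed an adjusted p of 0.05 and open points did not. Filled points number 33 in the left panel, all above 0, 17 in the middle panel, all below 0, and none in the right panel.

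Which library was left out mattered most for the withdrawal comparison. Its count of members called lower was 28 without undifferentiated replicate 1, 14 without undifferentiated replicate 2 and 23 without undifferentiated replicate 3, although those libraries enter it only through the shared estimate of spread. It was 27 without differentiated replicate 1, 4 without differentiated replicate 2 and 2 without differentiated replicate 3. Leaving out dedifferentiated replicate 1, 2 or 3 gave 3, 4 and 6. Spc25 and Ccnb1 were the 2 members called in all 9 such fits. Within sequencing project 9987 alone, with 2 libraries a stage, 0 members were called lower, and with the project as a covariate 22 were. Project 11026 holds 1 library a stage and allows no test; there all 39 members were below the differentiated library after withdrawal.

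The rise under dbcAMP depended less on any one library. Leaving out a library gave 22 to 35 members called higher, and 22 of the 33 were called in all 9 such fits. The lowest count, 22, came without differentiated replicate 3, where Aspm, Aurkb, Bub1b, Cdca8, Dlgap5, Hmmr, Incenp, Mybl2, Nuf2, Racgap1 and Ttk were lost. Without undifferentiated replicate 1, 29 were called and the median change was 1.39; the 4 lost were Cdca8 (0.76, adjusted p = 0.0573), Incenp (0.37, 0.0723), Bub1b (1.21, 0.0766) and Aspm (0.97, 0.0733). Within project 9987, 24 members were called, and in project 11026 the differentiated library stood above the undifferentiated one for all 39.

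**Figure D3:**
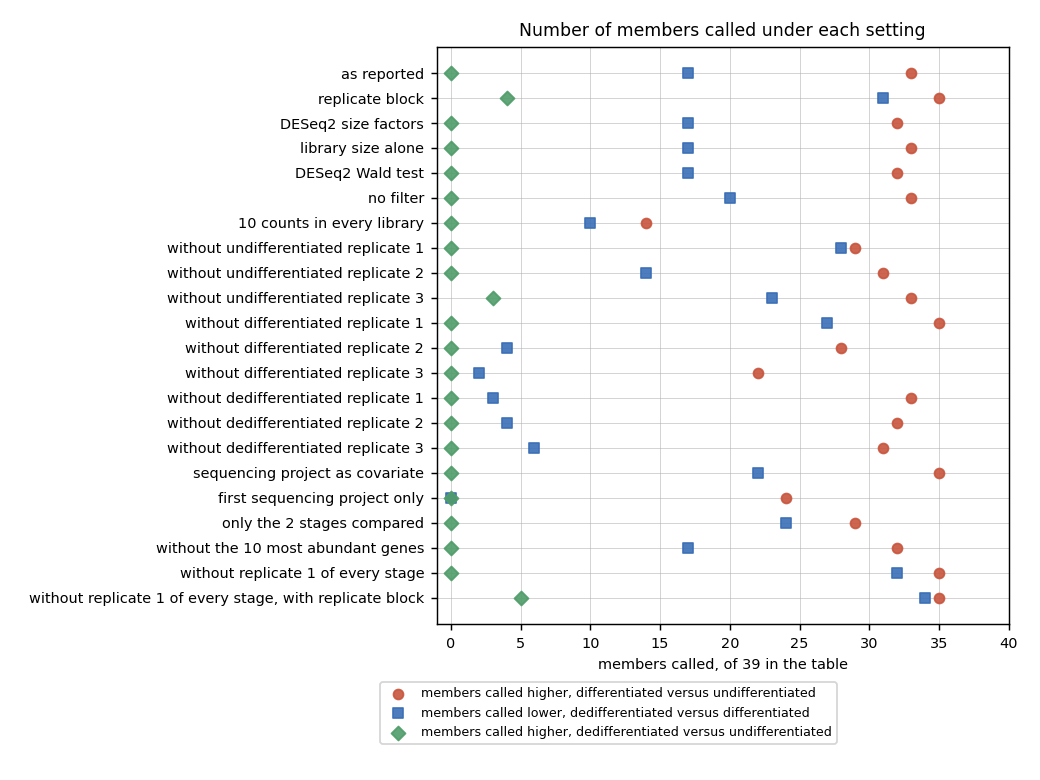
Number of the 39 members called (x axis) under the reported fit and each alternative (y axis), for members higher in differentiated than undifferentiated cells (circles), lower in dedifferentiated than differentiated cells (squares) and higher in dedifferentiated than undifferentiated cells (diamonds). Circles stay between 14 and 35, squares spread from 0 to 34 and diamonds stay at 5 or below.

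The stretches upstream of the members' RefSeq gene starts were searched for the letters bound by DREAM, B-MYB and FOXM1 complexes and their partners. Members were chosen by function, so the motif shares describe that list and not its changes in expression. Entries for 37 of the 45 members, 6 without expression values among them, were in the RefSeq promoter table of assembly GRCr8; the mRNA table's own build is not given in the sources used here. The cell cycle homology region (CHR, searched as TTTGAA or TTCGAA) is where DREAM and B-MYB complexes touch DNA, and the CCAAT box (CCAAT) is where the factor NF-Y binds. Both were searched on both strands in the 250 bases before the start. The stretches below are those of the 6 members with both motifs and the highest mean CPM among members described library by library, followed by Bub1, the member of that kind with neither and the highest mean CPM. Each runs 5′ to 3′ on the gene's strand up to the base before the start, and capitals mark every CHR and CCAAT match, on either strand.
Bub3, chr1:195760282-195760531, plus strand: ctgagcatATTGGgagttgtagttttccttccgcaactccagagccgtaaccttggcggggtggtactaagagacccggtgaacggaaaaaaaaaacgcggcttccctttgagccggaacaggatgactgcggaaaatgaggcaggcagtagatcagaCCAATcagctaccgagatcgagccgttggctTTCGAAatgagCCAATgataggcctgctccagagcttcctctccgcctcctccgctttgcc
Smc2, chr5:71602155-71602404, plus strand: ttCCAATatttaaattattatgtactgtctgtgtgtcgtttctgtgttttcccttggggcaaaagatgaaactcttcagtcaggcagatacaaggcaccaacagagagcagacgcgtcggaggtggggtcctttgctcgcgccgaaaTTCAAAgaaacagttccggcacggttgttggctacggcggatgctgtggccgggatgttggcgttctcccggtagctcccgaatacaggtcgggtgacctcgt
Mki67, chr1:199952594-199952843, minus strand: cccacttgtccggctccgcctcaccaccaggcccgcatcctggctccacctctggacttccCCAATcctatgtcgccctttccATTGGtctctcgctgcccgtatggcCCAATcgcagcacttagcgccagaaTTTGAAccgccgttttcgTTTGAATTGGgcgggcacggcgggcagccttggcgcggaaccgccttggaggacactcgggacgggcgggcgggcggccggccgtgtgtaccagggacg
Prc1, chr1:143659231-143659480, plus strand: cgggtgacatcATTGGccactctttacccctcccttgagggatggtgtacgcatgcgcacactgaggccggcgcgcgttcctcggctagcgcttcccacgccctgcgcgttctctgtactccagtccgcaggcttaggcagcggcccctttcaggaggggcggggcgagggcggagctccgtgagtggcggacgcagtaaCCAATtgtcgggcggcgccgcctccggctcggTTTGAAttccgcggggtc
Ckap2, chr16:76541864-76542113, plus strand: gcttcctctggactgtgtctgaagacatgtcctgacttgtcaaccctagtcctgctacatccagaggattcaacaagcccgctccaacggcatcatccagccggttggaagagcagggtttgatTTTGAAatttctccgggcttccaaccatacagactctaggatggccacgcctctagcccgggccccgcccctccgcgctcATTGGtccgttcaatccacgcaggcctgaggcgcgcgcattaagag
Cdc20, chr5:137255800-137256049, minus strand: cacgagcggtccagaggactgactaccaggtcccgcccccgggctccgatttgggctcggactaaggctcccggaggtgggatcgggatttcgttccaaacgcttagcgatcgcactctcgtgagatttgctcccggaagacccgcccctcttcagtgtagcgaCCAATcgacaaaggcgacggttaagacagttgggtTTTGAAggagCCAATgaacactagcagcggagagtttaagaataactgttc
Bub1, chr3:135504922-135505171, minus strand: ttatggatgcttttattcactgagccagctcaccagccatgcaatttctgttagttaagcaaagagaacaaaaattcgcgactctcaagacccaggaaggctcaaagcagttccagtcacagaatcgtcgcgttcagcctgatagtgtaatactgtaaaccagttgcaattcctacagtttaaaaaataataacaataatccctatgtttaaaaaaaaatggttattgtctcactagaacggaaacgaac

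In the Cdc20 stretch a CHR lies between CCAAT boxes, 51 bases before the start, with CCAAT boxes at 86 and 41 bases before it, counted to the first letter of each match. Mki67 carries 2 CHR matches at 117 and 99 bases, and the second shares letters with a reverse CCAAT box at 94 bases. Over the 37 entries, 22 held a CHR (59.5%, exact Clopper-Pearson 95% interval 42.1 to 75.2%), against 17.4% of all 33469 promoters of the table. A CCAAT box was found in 28 (75.7%, 58.8 to 88.2%), against 34.0% of all promoters. Both occurred in 20 (54.1%, against 6.31%), 2 or more CCAAT boxes in 21 (56.8%, against 9.42%), and neither in 7.

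**Figure D4:**
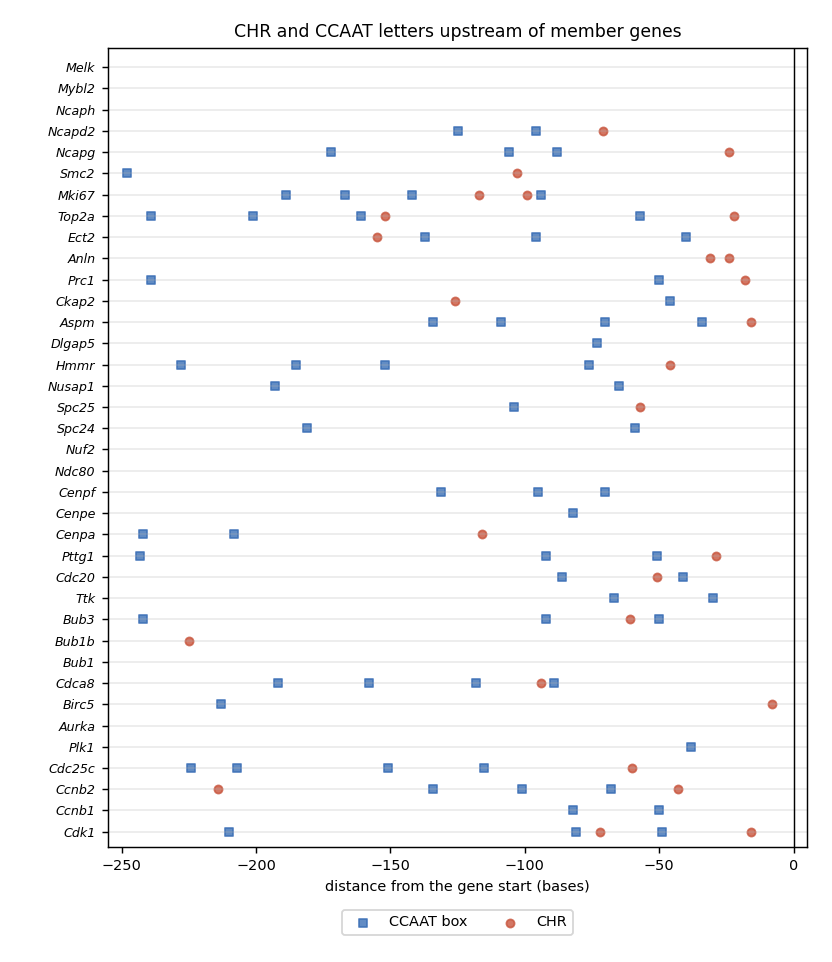
Distance from the gene start, in bases, of each CHR (circles) and CCAAT box (squares) match in the 250 upstream bases of the 37 members with a promoter entry (rows). Most symbols lie in the 150 bases nearest the start, and 7 rows, Aurka, Bub1, Ndc80, Nuf2, Ncaph, Mybl2 and Melk, hold none.

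An E2F site (TTCGCGC or TTGGCGC) was found in 3 of the 37 (8.11%, exact interval 1.7 to 21.9%, against 2.9% of all promoters). A MYB site (AACNGNC) was found in 15 (40.5%, 24.8 to 57.9%, against 28.4%). Both sites were searched on both strands, allowing any overlap between motifs. Both intervals, computed as for the CHR, contain the share of all promoters, so neither site was set apart from that share. The letters did not divide members that rose from those that did not. Of 26 called members with an entry, 15 held a CHR, 20 a CCAAT box, 14 both and 5 neither. Of the 5 uncalled members with an entry, Cdc25c, Bub3, Cenpa and Smc2 held both motifs and Bub1 held neither. These are letter matches, and no binding was measured.

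The counts by role that follow stand beside 31.7% of all genes tested called higher under dbcAMP and 23.2% called lower after withdrawal. In roles with 4 or 5 genes tested, 1 fall after withdrawal is near that second share. Differences between roles were not tested. Among the 7 genes of mitotic entry, 6 rose under dbcAMP and 4 of the 7 fell after withdrawal. Ccnb1 encodes cyclin B1, the partner that gives CDK1 its mitotic activity. It stood at 0.242, 2.31 and 4.97 CPM in the undifferentiated libraries, 14.6, 20.8 and 24.0 in the differentiated and 4.24, 6.86 and 5.57 in the dedifferentiated, in order of replicate number. The differentiated libraries did not overlap either other stage, with log2 changes of 2.88 ± 0.54 (adjusted p = 0.000961) and then -1.82 ± 0.51 (adjusted p = 0.0133); here and below ± is the SE of the fit. Cdk1, the kinase itself, stood at 0.403, 3.94 and 5.30 CPM, 9.28, 19.5 and 28.2 CPM and 2.97, 6.46 and 8.05 CPM in the same order. It rose by 2.49 ± 0.62 (adjusted p = 0.00515) and then changed by -1.69 ± 0.59 (adjusted p = 0.0361), and its lowest differentiated library was only slightly above its highest dedifferentiated one. After withdrawal its call was lost in 5 of the 9 fits without a library, those without differentiated replicate 2 or 3 or any dedifferentiated replicate (largest adjusted p = 0.142).

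Cdc25c, a phosphatase that activates CDK1, was the exception among these 7. Its values were 1.85, 3.27 and 3.14 CPM in undifferentiated, 3.46, 3.47 and 4.69 CPM in differentiated and 2.46, 2.29 and 2.86 CPM in dedifferentiated libraries. The differentiated libraries lay above the other 6, but by little: the changes of 0.44 ± 0.27 (adjusted p = 0.191) and -0.60 ± 0.28 (adjusted p = 0.102) were not called. Ccnb2 and Ccna2, cyclins B2 and A2, changed by 2.18 and 1.78 and then by -1.47 and -1.45. Of these the second change of Ccnb2 was not called (adjusted p = 0.0524). Plk1, a kinase of entry and later steps, rose by 1.65 and then changed by -1.18 ± 0.38 (adjusted p = 0.0257). Aurka, the centrosomal Aurora kinase, rose by 0.93 ± 0.21 (adjusted p = 0.00313) with a small spread, and its change after withdrawal, -0.50 ± 0.21 (adjusted p = 0.0676), was not called.

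The chromosomal passenger complex corrects faulty kinetochore attachments, and all 4 of its members rose under dbcAMP while 1 fell after withdrawal. Incenp, its scaffold, moved least of all called members. It stood at 13.3, 17.6 and 16.2 CPM, 18.1, 23.0 and 26.1 CPM and 14.4, 16.3 and 16.9 CPM in undifferentiated, differentiated and dedifferentiated libraries. Its rise of 0.46 ± 0.15 (adjusted p = 0.0232) was lost without undifferentiated replicate 1 or 3 or differentiated replicate 2 or 3 (largest adjusted p = 0.105), and its later change was -0.48 ± 0.15 (adjusted p = 0.0236). Cdca8, which encodes borealin, stood at 1.69, 4.42 and 5.04 CPM, 5.08, 10.9 and 9.01 CPM and 4.07, 5.87 and 5.04 CPM. Its first change was 1.10 ± 0.37 (adjusted p = 0.0253), with only a narrow gap between the highest undifferentiated and the lowest differentiated library, and its second, -0.72 ± 0.37 (adjusted p = 0.128), was not called. Aurkb, the kinase of the complex, and Birc5, which encodes survivin, rose by 2.13 and 2.38; their changes after withdrawal, -1.15 and -0.90, were not called (adjusted p = 0.125 and 0.228).

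The spindle checkpoint split. Ttk, the MPS1 kinase that starts checkpoint signalling, stood at 0.403, 1.15 and 3.01 CPM in undifferentiated, 4.27, 5.17 and 6.91 CPM in differentiated and 0.509, 1.69 and 2.33 CPM in dedifferentiated libraries. It rose by 1.74 ± 0.58 (adjusted p = 0.0233) and fell, with a change of -1.83 ± 0.59 (adjusted p = 0.0263); the differentiated libraries overlapped neither other stage. Bub1b, which encodes the checkpoint protein BUBR1, was called at 1.74 ± 0.68 (adjusted p = 0.0482) although its libraries overlapped, and it kept that call in 3 of 9 fits without a library.

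Bub1, a kinase that recruits checkpoint proteins to kinetochores, stood at 3.95, 6.73 and 7.85 CPM, 5.67, 11.7 and 18.6 CPM and 6.78, 9.25 and 10.6 CPM. Its differentiated libraries spread widely and overlapped the undifferentiated ones, and its change of 0.89 ± 0.38 (adjusted p = 0.0630) was not called; without differentiated replicate 1 it was (adjusted p = 0.00623). Bub3, a checkpoint protein that also works outside mitosis, stood at 90.0, 93.1 and 97.2 CPM, 80.7, 98.5 and 102 CPM and 80.5, 94.7 and 96.7 CPM. All 3 stages overlapped, with changes of -0.06 ± 0.10 (adjusted p = 0.608) and -0.03 ± 0.10 (adjusted p = 0.808).

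All 3 genes of anaphase promotion and securin rose, and 2 fell after withdrawal. Cdc20, the activator of the anaphase-promoting complex, stood at 4.35, 8.17 and 12.4 CPM in undifferentiated, 14.7, 22.7 and 27.9 CPM in differentiated and 8.99, 12.1 and 12.3 CPM in dedifferentiated libraries. Both changes, 1.32 ± 0.32 (adjusted p = 0.00447) and -0.95 ± 0.32 (adjusted p = 0.0297), were calls between stages that did not overlap. Ube2c, the ubiquitin-conjugating enzyme of that complex, stood at 0.161, 0.769 and 2.55 CPM, 3.83, 7.49 and 11.0 CPM and 1.19, 5.87 and 3.38 CPM. It rose by 2.55 ± 0.72 (adjusted p = 0.0106). Dedifferentiated replicate 2 reached into the differentiated range, and the later change of -1.10 ± 0.65 (adjusted p = 0.191) was not called. Pttg1, securin, the inhibitor of separase, rose by 1.83 and then changed by -1.34 ± 0.40 (adjusted p = 0.0199).

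Of the 7 listed centromere and kinetochore genes 5 had a row; 4 rose and 1 fell after withdrawal. Spc25, a subunit of the NDC80 complex that grips microtubules, stood at 0.967, 1.06 and 1.77 CPM, 2.28, 4.55 and 6.23 CPM and 0.763, 1.79 and 1.35 CPM in undifferentiated, differentiated and dedifferentiated libraries. It rose by 1.70 ± 0.43 (adjusted p = 0.00602) and fell back, with -1.74 ± 0.44 (adjusted p = 0.00811), and left a difference of -0.04 ± 0.48 (adjusted p = 0.963) between dedifferentiated and undifferentiated cells. Cenpf, a large kinetochore protein that accumulates in G2, stood at 0.322, 4.42 and 9.75 CPM, 13.1, 23.1 and 31.7 CPM and 7.29, 9.35 and 9.70 CPM. The differentiated libraries overlapped neither other stage; the rise of 2.14 ± 0.62 (adjusted p = 0.0123) was called and the later change of -1.35 ± 0.60 (adjusted p = 0.0865) was not. Without undifferentiated replicate 1 (adjusted p = 0.00593) or 3 the latter was called.

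Nuf2, another NDC80 complex subunit, stood at 1.45, 3.37 and 4.71 CPM, 5.23, 7.33 and 9.31 CPM and 3.65, 4.08 and 3.99 CPM. Its changes were 1.13 ± 0.35 (adjusted p = 0.0166) and -0.89 ± 0.35 (adjusted p = 0.0562); the stages did not overlap in either, but the second was not called. Cenpa, the centromeric form of histone H3, was close to the limit of detection at 0, 0.0961 and 0.982 CPM, 1.18, 0.772 and 2.53 CPM and 0.339, 1.89 and 0.752 CPM. Its libraries overlapped, its counts ran from 0 to 41, and the change of 1.85 ± 0.91 (adjusted p = 0.102) was not called. Without undifferentiated replicate 3 that change was called (adjusted p = 0.0113). Cenpa was tested only because it was high in differentiated cells, so no conclusion is drawn from that call. Ndc80, the gene the complex is named after, rose by 1.74, and its later change was -1.0 ± 0.38 (adjusted p = 0.0528).

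All 6 genes of spindle assembly rose under dbcAMP, and 3 fell after withdrawal. Tpx2, which activates Aurora A on spindle microtubules, stood at 2.74, 7.50 and 9.81 CPM in undifferentiated, 12.6, 23.3 and 31.1 CPM in differentiated and 7.12, 10.6 and 10.5 CPM in dedifferentiated libraries. Its changes of 1.68 ± 0.40 (adjusted p = 0.00428) and -1.23 ± 0.39 (adjusted p = 0.0257) were both called and both between stages that did not overlap. Ckap2, a microtubule-associated protein of the spindle, stood at 1.85, 7.79 and 15.1 CPM, 17.2, 36.4 and 48.0 CPM and 6.70, 12.6 and 12.0 CPM. The lowest differentiated library was just above the highest undifferentiated one; the changes were 1.96 ± 0.55 (adjusted p = 0.00976) and -1.68 ± 0.54 (adjusted p = 0.0262). Nusap1, which bundles spindle microtubules, rose by 2.13 and then changed by -1.38 ± 0.50 (adjusted p = 0.0426). Hmmr, Aspm and Dlgap5, all proteins of the spindle or its poles, rose by 1.55, 1.41 and 1.08, and their changes after withdrawal, -0.99, -0.99 and -0.78, were not called.

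The 3 cytokinesis genes with a row all rose, and 2 fell after withdrawal. Prc1, which cross-links the microtubules of the central spindle, stood at 1.29, 7.98 and 12.2 CPM in undifferentiated, 19.3, 37.8 and 46.9 CPM in differentiated and 7.63, 16.6 and 13.4 CPM in dedifferentiated libraries. The differentiated libraries overlapped neither other stage, with changes of 2.21 ± 0.55 (adjusted p = 0.00532) and -1.46 ± 0.53 (adjusted p = 0.0430). Racgap1, a subunit of centralspindlin, stood at 0.564, 3.94 and 6.80 CPM, 7.88, 16.5 and 18.6 CPM and 3.98, 6.86 and 6.62 CPM. It rose by 1.85 ± 0.56 (adjusted p = 0.0154); the later change of -1.28 ± 0.55 (adjusted p = 0.0761) was not called although the libraries did not overlap. Ect2, an exchange factor needed for cytokinesis, rose by 2.41 ± 0.56 (adjusted p = 0.00346) and then changed by -1.43 ± 0.52 (adjusted p = 0.0446).

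The 3 chromosome structure genes with a row ranged from the largest change of all members to 1 gene without a call; 2 rose and 1 fell after withdrawal. Top2a, the topoisomerase that untangles replicated chromosomes, was singled out after its values were seen: it stood at 0.242, 6.06 and 10.6 CPM, 23.1, 48.8 and 74.9 CPM and 8.82, 12.8 and 16.9 CPM in undifferentiated, differentiated and dedifferentiated libraries. Undifferentiated replicate 1 held 3 counts of it, and without that library the rise of 3.04 ± 0.68 (adjusted p = 0.00274) was 2.48 (adjusted p = 0.00103); without undifferentiated replicate 3 it was 3.94. After withdrawal it changed by -1.91 ± 0.63 (adjusted p = 0.0294). Mki67, the Ki-67 protein that coats mitotic chromosomes, stood at 0.322, 7.50 and 16.0 CPM, 22.6, 58.5 and 84.1 CPM and 13.4, 17.1 and 17.4 CPM. It rose by 2.71 ± 0.71 (adjusted p = 0.00692), and its later change of -1.77 ± 0.67 (adjusted p = 0.0508) was just outside the threshold, although the libraries did not overlap. Smc2, a core condensin subunit, stood at 29.1, 43.6 and 40.4 CPM, 26.9, 33.0 and 45.9 CPM and 36.0, 33.8 and 32.7 CPM. Its stages overlapped throughout, with changes of -0.15 ± 0.18 (adjusted p = 0.490), -0.03 ± 0.19 (adjusted p = 0.902) and, between dedifferentiated and undifferentiated cells, -0.19 ± 0.19 (adjusted p = 0.492).

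Among the 4 regulators of the programme, 3 rose and 2 fell after withdrawal. Mybl2, which encodes the activator B-MYB, stood at 0.483, 1.73 and 3.27 CPM in undifferentiated, 3.90, 6.71 and 12.0 CPM in differentiated and 1.61, 2.39 and 1.5 CPM in dedifferentiated libraries. It rose by 1.96 ± 0.54 (adjusted p = 0.00956), and its later change of -2.04 ± 0.55 (adjusted p = 0.0117) was the largest of the members after withdrawal; both calls were lost without differentiated replicate 3 (adjusted p = 0.0511 and 0.0582). Foxm1, the forkhead activator of G2 genes, stood at 8.54, 7.69 and 10.7 CPM, 9.36, 14.0 and 15.6 CPM and 6.78, 8.65 and 10.5 CPM. Its stages overlapped, and neither 0.47 ± 0.22 (adjusted p = 0.0889) nor -0.57 ± 0.22 (adjusted p = 0.0540) was called. Without differentiated replicate 1 both were called (adjusted p = 0.0227 and 0.0162), and the second also without dedifferentiated replicate 3. The mitotic kinases Melk and Pbk rose by 2.53 and 2.70, and then changed by -1.60 ± 0.54 (adjusted p = 0.0333) and -1.76 ± 0.69 (adjusted p = 0.0564).

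**Figure D5:**
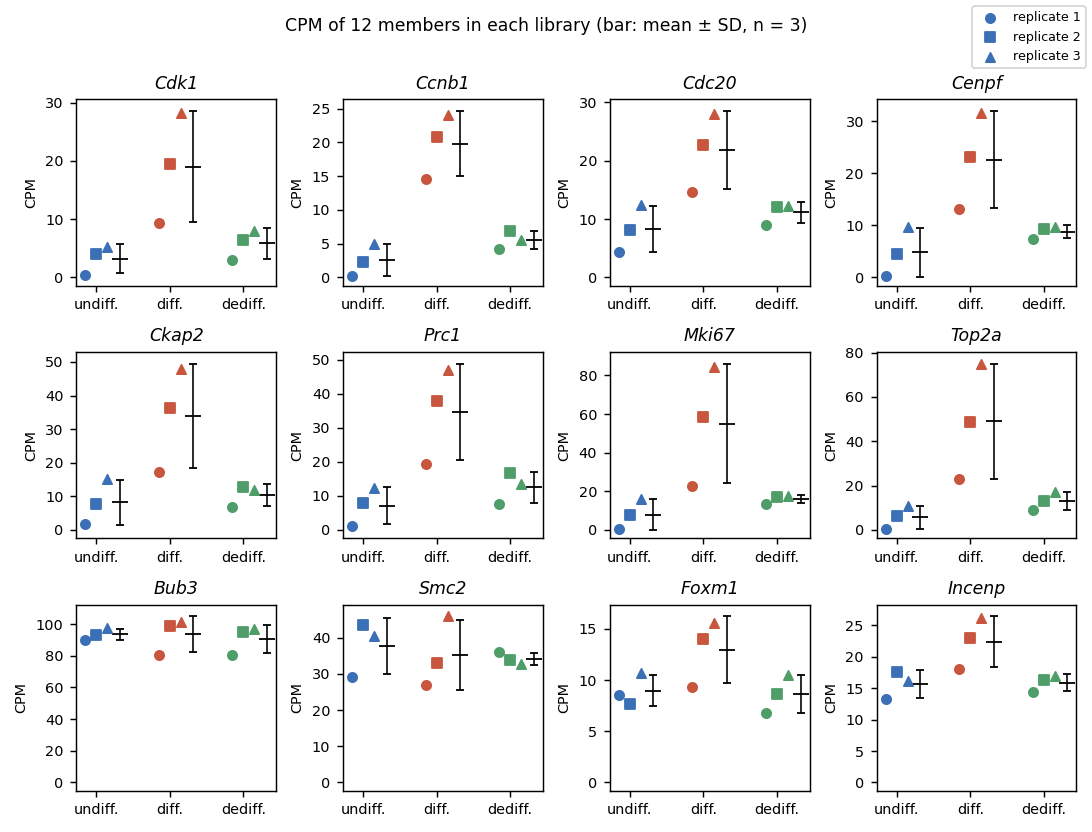
CPM of 12 members (panels) in each library of the 3 stages, with symbols for replicate number and bars for the mean ± SD (n = 3). The first 8 panels show differentiated libraries above the other stages with a wide spread, as for Mki67 at 22.6, 58.5 and 84.1 CPM, while Bub3 and Smc2 overlap in every stage and Foxm1 and Incenp move little.

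A wider list of 92 other G2 and mitosis genes had 73 rows, all tested. Under dbcAMP 35 rose (47.9%, against 31.7% of all genes tested) and 9 fell (12.3%, against 27.9%), with a median of 1.22. After withdrawal 18 fell (24.7%, near the 23.2% of all genes tested) and 8 rose (11%, against 23.2%), with a median of -0.74. Of the 35, Cdca5, Cenpu and Mis18a were tested only because they were high in differentiated cells. Cenpu was among the 18 falls too, with the same limit. Between dedifferentiated and undifferentiated cells 2 were higher (2.74%, against 16.1% of all genes tested) and 4 lower (5.48%, against 13.3%). Espl1, which encodes separase, the protease that cuts cohesin, stood at 0.967, 2.12 and 3.86 CPM, 14.7, 13.0 and 17.8 CPM and 7.29, 6.96 and 7.60 CPM. It rose by 2.62 ± 0.34 (adjusted p = 6.31e-05) and stayed higher than in undifferentiated cells after withdrawal, at 1.58 ± 0.34 (adjusted p = 0.00610). Fam83d, a spindle protein, and Cdc25b, a CDK-activating phosphatase, rose by 2.50 ± 0.36 (adjusted p = 0.000149) and 1.06 ± 0.20 (adjusted p = 0.000958).

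The falls of that list with the smallest p were in Arhgap11a, Kif22 and Zwint, whose libraries did not overlap. Arhgap11a stood at 153, 163 and 164 CPM in undifferentiated, 9.28, 19.8 and 26.5 CPM in differentiated and 19.3, 19.8 and 16.3 CPM in dedifferentiated libraries. It fell, with -3.17 ± 0.27 (adjusted p = 2.86e-06), and the dedifferentiated libraries were lower than the undifferentiated by the same amount, with -3.17 ± 0.27 (adjusted p = 1.45e-05). Kif22, a chromosome-arm kinesin, fell with -1.97 ± 0.20 (adjusted p = 1.10e-05) and then rose by 1.69 ± 0.20 (adjusted p = 6.89e-05). The kinetochore genes Zwint and Dsn1 followed that order with changes of -0.60 and -1.74 and then 0.38 and 0.85, the last call being lost in 4 of 9 fits without a library (largest adjusted p = 0.10).

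The next lists are short, and their counts are given beside the 31.7% of all genes tested that were called higher under dbcAMP and the 27.9% called lower. Of 15 subunits of the anaphase-promoting complex with a row, 1 rose (6.67%) and 7 fell (46.7%), with a median of -0.14. Anapc2, its cullin-like subunit, changed by -1.07 ± 0.08 (adjusted p = 1.33e-06) and then rose by 0.84 ± 0.08 (adjusted p = 1.83e-05). Of 15 genes of DREAM, E2F and pocket proteins, 7 were called higher (46.7%) and 2 lower (13.3%), with a median of 0.39. Tfdp2, an E2F partner, rose by 2.04 and the activator E2f3 by 1.47. The repressor E2f7 was among the 7, but it was tested only because it was high in differentiated cells, at 0.884, 2.08 and 4.50 CPM against 0, 0.385 and 0.785 CPM, and its call was lost without differentiated replicate 3 (adjusted p = 0.0868).

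Of 6 CDK inhibitors, 3 rose and 2 fell in the differentiated libraries. Cdkn1b, the inhibitor p27, stood at 125, 111 and 115 CPM in undifferentiated, 808, 771 and 715 CPM in differentiated and 421, 316 and 309 CPM in dedifferentiated libraries. It rose by 2.65 ± 0.14 (adjusted p = 7.23e-08) and after withdrawal changed by -1.12 ± 0.13 (adjusted p = 5.68e-05), remaining 1.53 above undifferentiated cells (adjusted p = 1.44e-05). Cdkn1a, p21, stood at 17.0, 18.6 and 17.2 CPM, 85.0, 103 and 91.7 CPM and 14.4, 27.1 and 20.7 CPM. Its changes were 2.34 ± 0.18 (adjusted p = 1.47e-06) and -2.16 ± 0.18 (adjusted p = 6.32e-06). Both inhibitor mRNAs were highest in the differentiated stage, as most members were. Within that stage Cdkn1b was highest in replicate 1 and lowest in replicate 3. Cdkn1a was highest in replicate 2 and lowest in replicate 1. Of the members, 38 were lowest in replicate 1 and 37 highest in replicate 3. A link between the inhibitors and the members was not tested. Cdkn2b, p15, went the other way, with -1.12 ± 0.13 (adjusted p = 3.35e-05) and then 1.17 ± 0.13 (adjusted p = 5.07e-05).

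DNA replication genes, which act before G2, were set beside the members as the nearest stage of the cycle. Of 49 with a row, 26 were called higher under dbcAMP (53.1%, against 31.7% of all genes tested) and 5 lower (10.2%, against 27.9%). Orc1, among the 26, was tested only because it was high in differentiated cells. The median change was 0.61. After withdrawal 28 fell (57.1%, against 23.2% of all genes tested) and 2 rose (4.08%, against 23.2%), with a median of -0.56. Orc1 was among these 28 too, with the same limit. Those medians lie on the same sides of 0 as the members' 1.78 and -1.23, and the difference between the lists was not tested. Rrm2, a ribonucleotide reductase subunit, changed by 2.85 ± 0.68 (adjusted p = 0.00412) and -1.94 ± 0.64 (adjusted p = 0.0306). Pcna, the polymerase clamp, and Mcm2, a helicase subunit, changed by 0.68 and 0.50 and then by -0.38 and -0.38, all called.

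Markers of other cells were read in the same libraries. Of 10 Schwann cell markers 9 had a row, and their summed level was 10900 to 12100 CPM in undifferentiated, 9060 to 11600 CPM in differentiated and 20500 to 23400 CPM in dedifferentiated libraries. The sum hides opposite changes: 4 were called higher and 5 lower under dbcAMP, then 8 higher and 1 lower after withdrawal. The fibroblast markers Pdgfra, Dcn, Lum and Thy1 were under 2 CPM in all libraries, with Lum at 0. The sum of all 8 markers was 24500 to 29200, 13000 to 16700 and 16100 to 19600 CPM in stage order. Almost all of it came from Col1a1, Col1a2, Col3a1 and Postn. Schwann cells also express collagens, and the source of these mRNAs was not tested. Of 5 fibroblast markers tested, 2 were called higher under dbcAMP and 2 lower. Of 8 macrophage markers 7 were under 2 CPM, 3 of them (Adgre1, Aif1 and C1qa) at 0, and the sum was 0.403 to 2.29, 3.95 to 5.17 and 2.11 to 3.90 CPM. Of 7 endothelial markers 5 were under 2 CPM, with Cdh5 and Cldn5 at 0, and the sum was 1.21 to 3.08, 6.78 to 9.11 and 11.9 to 22.5 CPM. The 6 mural cell markers summed to 124 to 155, 542 to 810 and 323 to 346 CPM, with Rgs5 at 0. The 7 neuron markers summed to 238 to 591, 1470 to 1980 and 395 to 520 CPM. Of these, 3 mural and 4 neuron markers (Rbfox3, Snap25, Syt1 and Stmn2 among the latter) were under 2 CPM in all libraries. The macrophage, mural and neuron sums were highest in the differentiated libraries, as most members were, but markers of a list did not all move alike. Of 3 mural markers tested, 1 was called higher under dbcAMP and 1 lower. Of 3 neuron markers tested, 2 were called higher and 1 lower, and the 2 macrophage markers tested were called higher. The 2 endothelial markers tested were also called higher under dbcAMP, though their list's sum was highest in the dedifferentiated libraries. The part of such cells in the results was not tested.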

How the data were processed

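Messenger RNA of 9 cell libraries was analysed; vesicle RNA was not used here. Per the name of the deposited table, its values are salmon estimated counts per gene. The submitters' processing notes name STAR, HISAT2, Salmon, SAMtools, Picard, bedtools, Trim Galore, cutadapt, FastQC, MultiQC and DESeq2 1.26.0, without roles; genome build and annotation are not given in the sources used here. Of the values 1.15% were fractional, none among the members, and all were rounded. Columns were matched to libraries by library code; a replicate suffix in the column names disagrees with the sample titles, which were followed.

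Genes were filtered with filterByExpr (minimum count 10, here 0.772 CPM), scaled by TMM on the column totals and fitted with edgeR 4.0.16 in R 4.3.3 by quasi-likelihood, all 3 stages sharing 1 estimate of spread, without covariates. Calls are Benjamini-Hochberg adjusted p under 0.05 over 10372 genes; every adjusted p in the text is of this kind unless another tool is named. The SE is the size of the log2 change divided by the square root of F. P-values measure the spread between these libraries, which the labels call biological replicates without naming separate animals. The script was tested on simulated counts. DESeq2 1.42.0 was an alternative. Promoters, 250 bases before the RefSeq (GRCr8) start, were searched in Python 3.11.15. Motif intervals cover counting error only.

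The members, the gene lists and the naming rule were chosen with earlier results of these data known. Values in every library are given for the 2 members of each role with the highest mean CPM and for members that were not called under dbcAMP or went against most; from other lists, the genes of smallest p or with a called log2 change over 1 were named.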

Additional observations from a re-analysis of the deposited data

How the results depend on the processing

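Alternatives were another scaling (DESeq2 size factors, library size alone), DESeq2's Wald test, other filters, each library left out, the sequencing project as covariate or the first project alone, only the 2 stages compared, the 10 most abundant genes left out and the replicate number as a block. Leaving out replicate 1 of every stage was chosen after seeing the data. No member changed direction in a call. Members called higher under dbcAMP numbered 22 to 35 when a library was left out, and 14 when 10 counts were required in every library, where only 19 members were tested. Members called lower after withdrawal numbered 2 to 28 when a library was left out, 10 with 10 counts in every library, 0 in the first sequencing project alone and 32 without replicate 1 of every stage. Members called higher in dedifferentiated than undifferentiated cells numbered 0 to 3 when a library was left out. All genes called numbered 5558 to 6415, 3916 to 5184 and 2246 to 3044 in the 3 comparisons when a library was left out, and 2606 (withdrawal; 4809 as reported) and 1283 (dedifferentiated versus undifferentiated; 3045 as reported) in the first project alone, which has fewer samples. The share of member promoters with a CHR was 75.7% when the 50 bases after the start were added, against 19.7% of all promoters. That share lies just above the interval of 42.1 to 75.2% given for the 250 bases. In the nearest 100 bases the share was 45.9%, against 6.18% of all promoters. Otherwise the causes were not tested.

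The titles number the replicates but tie no number to a shared culture. Once each stage's mean was removed, libraries of different stages with the same number correlated by 0.028 to 0.304, over 0.1 in 7 of 9 pairs, and 8 of 9 libraries correlated best with their own number, a hint from the data and not the design. With the number as a replicate block, 35 members were called higher under dbcAMP, 31 lower after withdrawal, and 4 higher in dedifferentiated than undifferentiated cells. Without replicate 1 of every stage, with the block, 34 were lower after withdrawal, and 5 were higher and 1 lower in dedifferentiated than undifferentiated cells. Low counts limit the low members: 10 had 3 counts or fewer in undifferentiated replicate 1, which held 12409557 counts in all. Undifferentiated replicate 2, at 10401572, had 2 such members.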
